A study of Mus musculus with 33 samples.

Results

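The genes described here are the translation initiation and elongation factors of the mouse frontal cortex (FC), with the kinases that phosphorylate eIF2α and the proteins that bind eIF4E. They were chosen by name and level alone: a gene symbol that starts with Eif or Eef followed by a digit, and a mean of at least 1 CPM, the reads of a gene scaled to a fixed total per library, over 33 libraries. Of 21565 genes listed, 66 symbols fit the name and 62 of these reached the level. The 4 left out were Eef1kmt4, Eif4e1b, Eif4e3 and Eif4ebp3.

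Protein synthesis begins when eIF2 brings the initiator tRNA to the small ribosomal subunit together with eIF1, eIF1A, eIF3 and eIF5. The cap-binding complex of eIF4E, eIF4G and the helicase eIF4A recruits the mRNA, and 4E-binding proteins block eIF4E until mTORC1, a kinase complex that senses nutrients, phosphorylates them. Under stress, 4 kinases phosphorylate the α subunit of eIF2, which then inhibits its exchange factor eIF2B, and translation slows. eEF1 carries aminoacyl-tRNA to the elongating ribosome and eEF2 moves the ribosome along, until eEF2 kinase inactivates it. In neurons these steps serve the protein synthesis that synaptic plasticity needs.

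All mice were adult males on a C57BL/6J background, and tissue was taken 6 hr after the usual time of lights on. According to the methods, mice for sequencing had by then been moved from a light-dark cycle to constant darkness. A slowly moving treadmill kept the deprived mice awake. Wild-type (WT) mice slept ad libitum (control sleep, CS, n = 6), were kept awake for 6 hr (sleep deprived, SD, n = 7), or had 4 hr of deprivation and then 2 hr of recovery sleep (RS, n = 7). Mef2c f/f mice, whose Mef2c alleles carry loxP sites around exon 11, were sampled in CS (n = 4) and SD (n = 3). Mef2c-cKO mice carried the same floxed alleles and a Camk2a-Cre transgene, which drives Cre from the CamKII promoter in excitatory forebrain neurons, and were sampled in CS (n = 3) and SD (n = 3). The study's methods state that some animals of this cross, Mef2c-cKO CS mice among them, also carried a recombined Mef2c allele in the tail, which points to the germline, so that the genotypes may differ outside excitatory neurons as well. The labels do not tell which libraries these are. In bulk tissue, fewer cells of a type and less RNA per cell cannot be told apart.

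The recovered totals ranged from 18935045 to 249046089 reads per library, so that a count of 0 allows up to 3 reads, or a fraction of 1 CPM. Markers of excitatory and inhibitory neurons, astrocytes, oligodendrocytes and microglia were all above 1 CPM in every WT library, as the label of the tissue requires. The total level of Mef2c was 957 to 1727 rescaled CPM in Mef2c-cKO CS and 1080 to 1207 in Mef2c f/f CS, and since only exon 11 is removed, this gene-level value does not check the deletion. The WT CS libraries stood apart from each other. In CS, the rank correlation across genes between a library's deviation from the mean of all libraries and the GC content of the transcript ran from -0.75 to -0.09, while in SD it ran from 0.02 to 0.78 and in RS from -0.26 to 0.68. Reads assigned to no listed gene made up at least 3% of the total in 4 of 6 CS, 1 of 7 SD and 3 of 7 RS libraries, and 0% in all Mef2c f/f and Mef2c-cKO libraries. The counts of DEGs in WT SD and RS are therefore given with and without some of the CS libraries. Of the Mef2c-cKO CS libraries, CS 8 stood apart in summed astrocyte markers (2340 rescaled CPM, 715 and 756 in the others) and microglia markers (419, 159 and 189), and CS 5 in choroid plexus markers (312, 5.26 and 4.75).

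The members spanned a wide range of levels. Per kilobase of transcript, the elongation factor gene Eef1a1 was the highest in WT CS at 844 ± 145 CPM per kb (SD, n = 6), followed by its neuronal paralogue Eef1a2 at 221 ± 37.52, the helicase gene Eif4a2 at 178 ± 22.7 and Eef2 at 145 ± 36.1. Only these 4 members lay above 100 CPM per kb, and Eef1a1 exceeded each of the others in every CS library. The ranges of the neighbours Eef1a2 and Eif4a2 overlapped, as did those of Eif4a2 and Eef2, while those of Eef1a2 and Eef2 did not. At the low end, 6 members lay under 5 CPM per kb, among them both 4E-binding protein genes, Eif4ebp2 at 2.30 ± 0.54 and Eif4ebp1 at 1.26 ± 0.20. Among the kinases of eIF2α the highest level was that of Eif2ak1 (HRI) at 12.3 ± 1.26, with Eif2ak4 (GCN2) at 8.58 ± 0.56, Eif2ak3 (PERK) at 7.35 ± 0.17 and Eif2ak2 (PKR) at 2.24 ± 0.82.

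Of the 62 members, 50 had 1 or more promoter windows in RefSeq (GRCm38.p6; 250 bases before to 50 bases after a transcript start, 65 windows in all). The E-box CACGTG, the letters bound by the clock proteins CLOCK and BMAL1 and by the MYC family, stood in windows of 12 of the 50 members (24.0% of genes), against 11.69% of the 9084 genes that reached 1 CPM in each library. The 12 were Eef2, Eef2k, Eif1b, Eif3a, Eif3f, Eif3k, Eif4a1, Eif4e, Eif4g1, Eif4h, Eif5a and Eif5a2. The 5 promoters shown are those of members whose level differed in a comparison described further on and whose E-box lies within 70 bases of the start. Each holds the 250 bases before the start, 5′ to 3′ on the strand of the gene, with the E-box in capitals. They lie at chr10:81176381-81176630 (plus strand, Eef2), chr7:108934165-108934414 (plus strand, Eif3f), chr7:28981889-28982138 (minus strand, Eif3k), chr7:120842581-120842830 (plus strand, Eef2k) and chr9:120492356-120492605 (plus strand, Eif1b).
Eef2: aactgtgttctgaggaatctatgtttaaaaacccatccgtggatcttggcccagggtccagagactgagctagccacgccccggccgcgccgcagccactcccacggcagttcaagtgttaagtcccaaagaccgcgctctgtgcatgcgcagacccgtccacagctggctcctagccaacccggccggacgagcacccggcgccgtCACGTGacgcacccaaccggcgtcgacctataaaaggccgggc
Eif3f: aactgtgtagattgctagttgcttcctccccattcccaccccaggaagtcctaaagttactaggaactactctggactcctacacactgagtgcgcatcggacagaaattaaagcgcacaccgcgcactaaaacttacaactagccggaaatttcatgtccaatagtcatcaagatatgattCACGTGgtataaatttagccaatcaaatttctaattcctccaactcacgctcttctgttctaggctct
Eif3k: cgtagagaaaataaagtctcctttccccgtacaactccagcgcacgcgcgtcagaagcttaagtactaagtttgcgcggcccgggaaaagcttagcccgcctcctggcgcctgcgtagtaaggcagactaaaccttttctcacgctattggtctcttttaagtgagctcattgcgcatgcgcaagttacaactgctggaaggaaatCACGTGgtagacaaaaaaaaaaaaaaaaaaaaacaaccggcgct
Eef2k: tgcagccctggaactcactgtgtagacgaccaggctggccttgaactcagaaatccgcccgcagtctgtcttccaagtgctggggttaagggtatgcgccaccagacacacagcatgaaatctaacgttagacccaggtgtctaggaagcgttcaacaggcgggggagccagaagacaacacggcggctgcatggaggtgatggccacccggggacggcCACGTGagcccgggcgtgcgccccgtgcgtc
Eif1b: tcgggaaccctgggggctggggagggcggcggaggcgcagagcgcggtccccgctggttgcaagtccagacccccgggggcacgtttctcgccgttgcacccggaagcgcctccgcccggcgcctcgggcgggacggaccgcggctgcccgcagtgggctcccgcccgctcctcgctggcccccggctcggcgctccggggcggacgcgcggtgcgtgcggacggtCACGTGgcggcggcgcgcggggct
The first base of the E-box lay 43 bases before the start in Eef2, 68 in Eif3f, 44 in Eif3k, 31 in Eef2k and 24 in Eif1b. These are RefSeq starts. In GENCODE M21 the Eif1b gene begins at chr9:120492232, ahead of its window, so that the place of its start differs between the annotations. A match of letters is a description of the window and not a measured binding site.

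Many mRNAs of the translation machinery begin with a C and a run of pyrimidines, the 5′ terminal oligopyrimidine (TOP) motif through which mTORC1 regulates their translation. By the RefSeq start, a C followed by at least 4 pyrimidines opened a transcript of 2 members, Eif2s3x and Eif3f, or 3.08% of member windows against 2.51% of all 32851 windows. The run was sought only at the exact annotated base. An annotated start that is off by a few bases would hide it, so that the other members are not shown to lack the motif. The window around the start of Eif3f at chr7:108934405-108934434 is shown because it holds 1 of these 2 runs, given in capitals from the first transcribed base.
Eif3f start: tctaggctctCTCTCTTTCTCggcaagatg
The cyclic AMP response element TGACGTCA was in the window of Eef2 only (1.54% of member windows, 1.79% of all). The ATF4 site TGATGNAAN, read on both strands, was in those of Eef2k and Eif2s3x (3.08% and 3.95%). The MEF2 site was in none of the member windows and in 0.56% of all.

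The comparison of WT CS with WT SD asks which factors differ after 6 hr without sleep. Differentially expressed genes (DEGs) passed limma at an adjusted p of 0.05 or less with a log2 fold change of 0.3 or more in size. Of 61 members tested, 23 were DEGs, 17 higher and 6 lower in SD, or 37.7% of members. Over all 12913 genes tested, 45.1% were DEGs (24.6% higher and 20.5% lower), so that the members changed no more often than other genes. Their median log2 fold change was 0.07, and that of all genes 0.04. The split between rises and falls depended on the scale: with CPM as deposited the median of all genes moved to 0.3, and 36 members were called, 35 higher and 1 lower. This count is given without the share of all genes called, and so does not set the members apart from other genes. The largest rises were in Eif6, Eif5a, Eif4h, Eef2, Eif2b2, Eif3i, Eif3f and Eif3k (log2 fold changes of 0.91 to 0.59). The falls were in Eif2s3y, Eif2ak2, Eif2a, Eif4g3, Eif3e and Eif5a2 (-0.78 to -0.34).

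**Figure D1:**
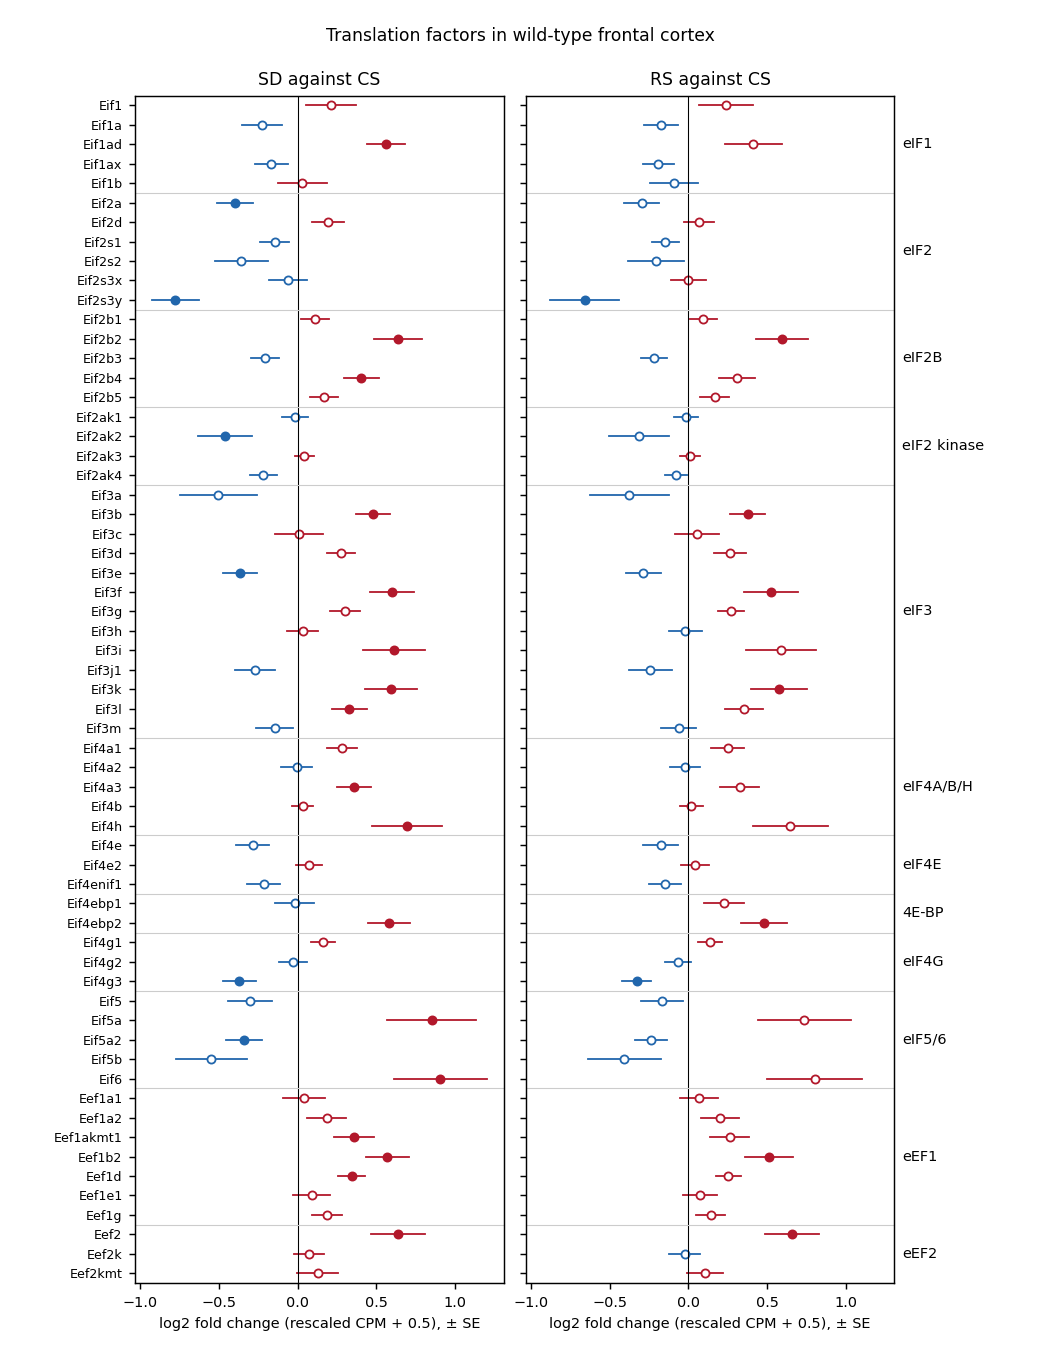
Log2 fold change (± SE) of 61 translation factor genes in WT SD (left, n = 7) and WT RS (right, n = 7) against WT CS (n = 6), which both panels share, ordered by role; red is higher and blue lower than CS, and filled points are DEGs. Of the members, 23 are filled for SD and 9 for RS, with Eif6 farthest to the right at 0.91 and Eif2s3y farthest to the left at -0.78 in SD.

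Among the factors that bring the initiator tRNA, the level of most differed little. Eif2s1, which encodes the α subunit that the stress kinases phosphorylate, was not a DEG, with a log2 fold change of -0.15 (95% interval -0.345 to 0.05). Eif2s3y, the Y-linked gene of the γ subunit, ranged from 68.8 to 138 rescaled CPM in CS (median 88.8) and from 41.7 to 64.45 in SD (median 52.9). Every SD library was lower than every CS library, as held for 10.4% of all genes, and the fall was -0.78 ± 0.15 (SE, adjusted p = 0.00191). Its X-linked counterpart Eif2s3x encodes a nearly identical protein and was at -0.06 ± 0.12. Reads that both copies share could be split between them, so that the division is uncertain. Eif2a, which can deliver the initiator tRNA outside the main route, fell by 0.40 (adjusted p = 0.0115). In the eIF1 group only Eif1ad, a gene with an eIF1A-like domain, was a DEG, with 8.60 to 15.5 rescaled CPM in CS (median 11.65) and 14.9 to 21.5 in SD (median 17.2). The groups overlapped in a narrow zone at 14.9 to 15.5, and the rise was 0.56 ± 0.12 (adjusted p = 0.00351).

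Of the 5 subunits of the exchange factor eIF2B, 2 rose. The regulatory subunit Eif2b2 rose by 0.64 ± 0.15 (adjusted p = 0.00547) and Eif2b4 by 0.40 ± 0.11 (adjusted p = 0.0104), while the catalytic subunit Eif2b5 was at 0.17 ± 0.09 (adjusted p = 0.121). Among the kinases of eIF2α, Eif2ak3 and Eif2ak1 were at 0.04 ± 0.06 and -0.02 ± 0.08, with 95% intervals of -0.09 to 0.18 and -0.19 to 0.16. Eif2ak4 passed on adjusted p (0.0468) but not on fold, at -0.22. Eif2ak2, the kinase that binds double-stranded RNA, was the 1 kinase to pass both, at -0.46 ± 0.17 (adjusted p = 0.0378). It ranged from 5.70 to 15.6 rescaled CPM in CS and from 6.02 to 7.43 in SD, so that the SD libraries lay inside the CS range. Leaving out any 1 of WT CS 1, 2 or 3 or WT SD 2, 4, 6, 8 or 9 ended the call for Eif2ak2.

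Of 13 subunits of eIF3 tested, the scaffold that holds the mRNA to the small subunit, 5 rose, 1 fell and 7 did not pass. The subunit Eif3f ranged from 24.95 to 42.6 rescaled CPM in CS (median 36.1) and from 40.9 to 68.8 in SD (median 52.2), with a rise of 0.60 ± 0.14 (adjusted p = 0.00482). Eif3b had 24.8 to 37.0 in CS and 38.3 to 51.1 in SD, and every SD library was higher, as held for 4.68% of all genes (0.48 ± 0.11, adjusted p = 0.00424). Eif3i, Eif3k and Eif3l rose by 0.615, 0.59 and 0.33, and Eif3e fell by 0.37 (adjusted p = 0.0148). The largest subunit, Eif3a, was at -0.50 ± 0.24 without passing (adjusted p = 0.093), and its 6 CS libraries alone ran from 136 to 418 rescaled CPM. The subunits of this complex thus did not change in 1 direction.

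In the cap-binding complex, the 4E-binding protein gene Eif4ebp2, the main form in neurons, ranged from 10.4 to 17.5 rescaled CPM in CS (median 12.35) and from 16.8 to 22.5 in SD (median 21.0). The groups overlapped only between 16.8 and 17.5, and the rise was 0.58 ± 0.13 (adjusted p = 0.00472). Eif4ebp1 was at -0.02 ± 0.12. The cap-binding protein gene Eif4e passed on adjusted p (0.0371) but not on fold, at -0.29. Of the scaffolds, Eif4g3 fell by 0.37 (adjusted p = 0.0127), from 248 to 322 rescaled CPM in CS (median 303) to 184 to 279 in SD (median 226), while Eif4g1 was at 0.16 ± 0.08 and Eif4g2 at -0.03 ± 0.09. The log2 ratio of Eif4g3 to Eif4g1 reads was 0.36 to 0.62 in CS and -0.45 to 0.31 in SD, with no overlap. Of the helicases and their cofactors, Eif4h rose by 0.695 ± 0.22 (adjusted p = 0.0206) and Eif4a3, a helicase of the exon junction complex, by 0.36 ± 0.11 (adjusted p = 0.016), and Eif4a2 was at -0.01 ± 0.10.

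At the later steps, Eif6, which keeps the large subunit from joining too early, had the largest rise over all libraries, at 0.91 ± 0.30 (adjusted p = 0.0221), but only 0.29 without the 3 CS libraries of lowest GC trend and 0.14 among libraries with under 3% unlisted reads, neither of which passed. Eif5a, the factor that relieves stalled ribosomes, rose by 0.85 ± 0.28 (adjusted p = 0.0237), and its paralogue Eif5a2 fell by 0.34 (adjusted p = 0.0235). The log2 ratio of Eif5a2 to Eif5a reads was -0.46 to 2.17 in CS and -1.34 to -0.57 in SD, with no overlap. Apart from this ratio and that of Eif4g3 to Eif4g1, the ratios of the paralogue pairs read overlapped between CS and SD. The transcripts of Eif5a2 and Eif5a differ in GC content (38.8% and 55.0%). With the GC and length correction described below, Eif5a2 was at 0.12 and Eif5a at 0.50, and neither passed. Among elongation factors, Eef2 ranged from 255 to 574 rescaled CPM in CS (median 469) and from 463.5 to 803 in SD (median 706), with a rise of 0.64 ± 0.17 (adjusted p = 0.01). Eef1b2, a nucleotide exchange factor for eEF1A, had 34.5 to 59.2 in CS (median 49.7) and 61.8 to 99.25 in SD (median 66.55). Every SD library was above every CS library, and the rise was 0.57 ± 0.14 (adjusted p = 0.00624). Eef1a1 and Eef1a2, which carry the tRNA, were at 0.04 (95% interval -0.24 to 0.32) and 0.185 (-0.08 to 0.45), and Eef2k was at 0.07 (-0.13 to 0.27).

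The fold changes followed the base composition of the transcripts. Between WT CS and SD, the rank correlation of log2 fold change with transcript GC content was 0.77 over 61 members and 0.73 over 12443 genes of all kinds, values that share the same 13 libraries. Members that rose had a median GC content of 54.1% (46.2 to 57.9%), and members that fell had 42.0% (38.8 to 51.5%). The spread among the CS libraries lay along the same axis. Eif6, at 57.9% GC, had 7.42, 4.47, 12.9, 13.8, 23.4 and 19.2 rescaled CPM in CS 1 to 6, and the GC trend of those libraries was -0.51, -0.75, -0.69, -0.17, -0.22 and -0.09. Eif5b, at 43.7% GC, had 105.5, 138, 88.8, 75.6, 44.9 and 52.7 in the same order. In CS 5 and CS 6, both genes lay inside or next to the SD range (16.3 to 28.5 for Eif6, 42.5 to 75.9 for Eif5b). The part of GC content and of these libraries in the results was not tested.

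With values corrected per library for GC content and transcript length, 9 members were DEGs in SD, 7 higher and 2 lower, against 20.6% of all genes. Of these, 6 were DEGs without the correction as well: Eef1b2 (0.72), Eif3f (0.60), Eif1ad (0.54), Eif4ebp2 (0.495), Eif2s3y (-0.39) and Eif4g3 (-0.40). Eif4a2 (0.37), Eif4a1 (0.345) and Eif4g2 (0.34) passed only then. The rises of Eif6, Eif5a, Eif4h, Eef2 and Eif3k were 0.41, 0.50, 0.43, 0.22 and 0.09 and no longer passed. Without the 3 CS libraries of lowest GC trend, Eif5a, Eif4h, Eef2 and Eif3k were at 0.31, 0.24, 0.35 and 0.35 and did not pass. There 6 of the 23 DEGs still passed. Counted over all members, 7 were called there, and of all genes 6.7% were called higher and 11.1% lower. The 6 of 23 is a share of DEGs kept and is not to be set against these percentages. Among the libraries with under 3% unlisted reads 3 members passed, all of them among the 23: Eif4ebp2 (0.755), Eif3b (0.76) and Eif2s3y (-0.62). Of all genes, 6.23% were called higher and 7.71% lower in those libraries.

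**Figure D2:**
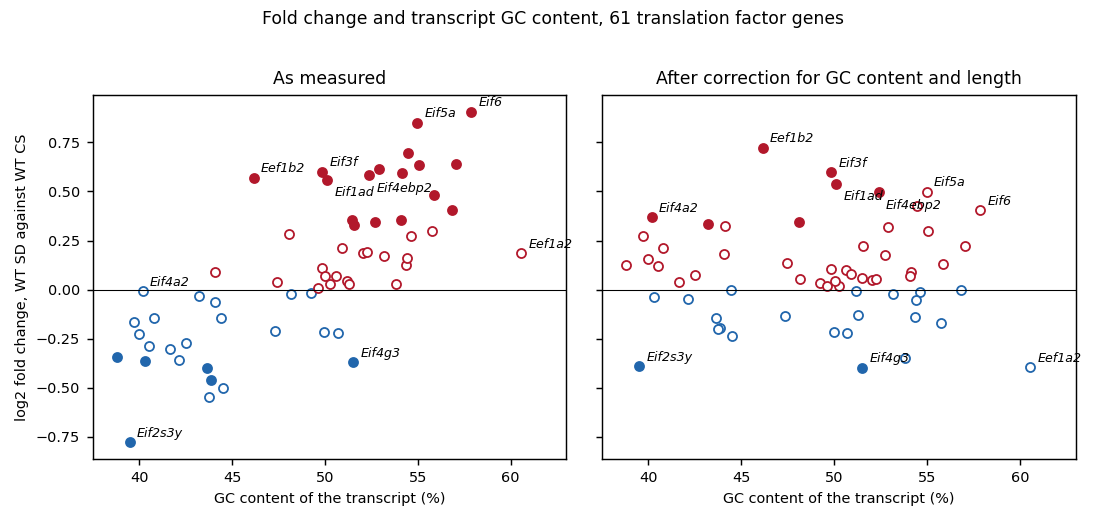
Log2 fold change of 61 translation factor genes in WT SD (n = 7) against WT CS (n = 6) plotted against transcript GC content, as measured (left) and after a per-library correction for GC content and transcript length (right); red is higher, blue is lower and filled points are DEGs. The slope on the left, from Eif2s3y at -0.78 to Eif6 at 0.91, is set against the right panel, where Eef1b2, Eif3f, Eif1ad and Eif4ebp2 lie at 0.495 to 0.72.

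In all, 5 members passed under each of 11 other ways to scale, filter, correct or test the data and with any 1 of the 13 libraries left out: Eef1b2 (chr1:63176825-63180486), Eif1ad (chr19:5366741-5371526), Eif3f (chr7:108934417-108942951), Eif4ebp2 (chr10:61428491-61452661) and Eif2s3y (chrY:1010543-1028847), with gene bounds from GENCODE M21 on GRCm38. With the replicate number as a block, Eif2s3y alone passed of all members. Of the 11, 1 only dropped the fold threshold, where a DEG could not lose its call. The shares of all genes that passed in the same way, or with the block, are not given here. These counts thus do not set the members apart from other genes. The 11 do not include the alternatives by unlisted reads or GC trend. Among libraries with under 3% unlisted reads, only Eif4ebp2 and Eif2s3y of the 5 passed. Eef1b2 (0.29, adjusted p = 0.238), Eif1ad (0.37, adjusted p = 0.125) and Eif3f (0.60, adjusted p = 0.0525) did not. Eef1b2 also did not pass without the 3 CS libraries of lowest GC trend (0.37, adjusted p = 0.0734). Markers of other tissues also differed between these groups. The summed level of 5 meningeal fibroblast markers was 8.82 to 38.7 rescaled CPM in CS and 44.5 to 72.2 in SD, with Col1a1, Lum and Slc22a6 under 1 in some CS libraries. That of 5 red blood cell markers was 28.2 to 118 in CS and 97.9 to 285 in SD. That of 5 choroid plexus markers was 11.55 to 190 in CS (median 22.6) and 5.93 to 12.3 in SD (median 9.91), with Folr1, Kcnj13 and Otx2 under 1 in some libraries of each group. The part of these tissues in the members' differences was not tested.

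In the comparison of WT CS with WT RS, which asks what differs once mice deprived for 4 hr have slept for 2 hr and uses the same CS libraries, 9 of 61 members were DEGs, 7 higher and 2 lower, against 17.5% of 12752 genes tested (9.28% higher, 8.22% lower). The members' median log2 fold change was 0.07 and that of all genes 0.02. Eef2 (0.66 ± 0.17, adjusted p = 0.035), Eif2b2 (0.60), Eif3k (0.58), Eif3f (0.52), Eef1b2 (0.51), Eif4ebp2 (0.48) and Eif3b (0.38) were higher, and Eif2s3y (-0.66) and Eif4g3 (-0.33) were lower. Eef2 had 557.5 to 918 rescaled CPM in RS, and its lowest RS library lay below the highest CS library of 574. All 9 adjusted p-values lay between 0.035 and 0.0492. Leaving out any 1 of CS 1, 2 or 3, or of RS 3, 4, 5, 6 or 12, left none of the 9 called, and with the GC and length correction only Eif4g3 passed (-0.34, adjusted p = 0.0328).

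Between WT SD and WT RS no member was a DEG in limma, and none lay at or under an unadjusted p of 0.05, where 5.29% of all 12921 genes did. DEGs made up 0.0232% of genes in this comparison. The members' log2 fold changes ran from -0.15 to 0.25, and the bounds of the 61 95% intervals lay between -0.47 and 0.51. No difference between these groups was detectable, and the intervals leave room for differences of that size. The groups differ both in recovery sleep and in the length of deprivation (6 and 4 hr), and none was sampled at 4 hr of deprivation, so that recovery alone was not measured.

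In Mef2c f/f mice, CS (n = 4) and SD (n = 3) differed in no member by limma, against 0.0403% of 12410 genes. Without adjustment, 12 members lay at or under a p of 0.05, beside 17% of all genes. The nearest were Eif4ebp1, at 3.91, 4.11, 5.735 and 3.58 rescaled CPM in CS and 2.885, 2.09 and 2.03 in SD (-0.76 ± 0.18, adjusted p = 0.113), and Eif4g2 (0.27 ± 0.07, adjusted p = 0.139). The 2 groups did not overlap for either gene, as they did not for 17.4% of all genes. By DESeq2 on recovered reads, Eif4ebp1 was a DEG and no other member was, and by edgeR none was. The share of all genes called by DESeq2 is not given here, so that this call does not set Eif4ebp1 apart from other genes. The paper, which used DESeq2, reports far more DEGs in this comparison than limma called here. In Mef2c-cKO mice (n = 3 and 3), no member was a DEG by limma (0.0234% of 12810 genes) and none lay at or under an unadjusted p of 0.05 (3.05%). The log2 fold changes there ran from -0.42 for Eif2ak2 to 0.41 for Eif3j2. The value for Eif2ak2 rests on Mef2c-cKO CS 8, at 29.98 rescaled CPM beside 7.13 to 9.17 in the other 5 libraries, and is 0.20 without it. The difference between the 2 genotypes in the effect of sleep loss, tested as an interaction, passed for none of 62 members by limma (0.00778% of all genes). Unadjusted, 4 lay at or under 0.05 (7.81% of all genes): Eif1b (-0.54), Eif4ebp1 (0.88), Eif2ak4 (0.36) and Eif4g2 (-0.28), of which Eif1b had the smallest adjusted p at 0.461.

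The comparison of Mef2c-cKO with Mef2c f/f mice in CS asks which factors differ between the genotypes while mice sleep freely. Of 62 members, 3 were DEGs, against 7.67% of 12681 genes. Eef2k (chr7:120842831-120907450), the kinase that inactivates eEF2, had 52.2, 53.05, 57.05 and 58.2 rescaled CPM in Mef2c f/f and 35.5, 38.8 and 39.3 in Mef2c-cKO. Every Mef2c-cKO library was lower, and the log2 fold change was -0.54 ± 0.08 (adjusted p = 0.0102). Eif1b (chr9:120492232-120495330), a paralogue of the start codon selection factor eIF1, had 33.5, 37.2, 30.5 and 32.8 in Mef2c f/f and 47.4, 50.25 and 63.03 in Mef2c-cKO (0.66 ± 0.12, adjusted p = 0.0159). Again the groups did not overlap, as they did not for 26.9% of all genes. Eif4ebp1 (chr8:27260329-27276674) had the values given above in Mef2c f/f and 2.51, 2.36 and 2.24 in Mef2c-cKO (-0.735 ± 0.18, adjusted p = 0.0406). Cell type markers moved with genotype: in CS the summed astrocyte markers were at 545 to 595 rescaled CPM in Mef2c f/f and 715 to 2340 in Mef2c-cKO, those of microglia at 132.5 to 153 and 159 to 419, and those of red blood cells at 123 to 182.5 and 10.7 to 108. Those of meningeal fibroblasts (25.2 to 29.9 and 36.1 to 40.8) and mural cells (117 to 136 and 137 to 162) did not overlap either. Their part in these differences was not tested. Without Mef2c-cKO CS 5, CS 7 or CS 8, 2, 0 and 4 members passed, and Eif4ebp1 passed in only 1 of 7 fits that left out a library. In WT CS, Eef2k was at 30.4 to 43.1 rescaled CPM and Eif4ebp1 at 2.00 to 2.97, below the ranges of the Mef2c f/f CS libraries and overlapping those of the Mef2c-cKO CS libraries.

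In SD, 7 of 62 members were DEGs between Mef2c-cKO and Mef2c f/f, against 15.1% of 12774 genes. The groups of 3 did not overlap for any of the 7, as they did not for 40.3% of all genes. Eif4g3 (chr4:137993022-138208508) had 245, 255 and 263 rescaled CPM in Mef2c f/f and 180.5, 170.5 and 196 in Mef2c-cKO (-0.48 ± 0.07, adjusted p = 0.0044), and it passed without any 1 of the 6 libraries. Eef2k had 49.99, 51.1 and 44.45 in Mef2c f/f and 36.05, 38.8 and 37.1 in Mef2c-cKO (-0.37 ± 0.07, adjusted p = 0.0144). It was thus lower in Mef2c-cKO mice both in CS and in SD, comparisons that share no library, though in SD it did not pass without Mef2c f/f SD 1 or with CPM as deposited. Eif3k was higher by 0.59 ± 0.12 (adjusted p = 0.0135), Eif6 by 0.39 ± 0.09 (adjusted p = 0.02) and Eef1a1 by 0.33 ± 0.07 (adjusted p = 0.0203). Of the 6 fits that left out a library, Eif3k passed in 4, Eif6 in 3 and Eef1a1 in 1. None of these 3 genes passed in the fit over all groups. With the GC and length correction Eif6 (0.23) and Eef1a1 (0.26) did not pass, while Eif3k did (0.41).

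The remaining pair was Eif3j1 (-0.39 ± 0.09, adjusted p = 0.0244) and Eif3j2 (1.52 ± 0.39, adjusted p = 0.0321), which encode nearly identical forms of a loosely bound eIF3 subunit. Eif3j2 had 0.69, 0.62 and 0.85 rescaled CPM in Mef2c f/f and 6.13, 2.89 and 1.38 in Mef2c-cKO, so that the higher group also spread the most. It reached the filter of 1 CPM only through the Mef2c-cKO group, where it is high, so that its call is no independent evidence of a difference. The call was lost with no filter, with quantile normalization, and without Mef2c f/f SD 1, SD 2 or SD 3. That of Eif3j1 held in 1 of 6 fits that left out a library. Eif3j1 had 47.8, 51.0 and 48.4 in Mef2c f/f and 32.9, 42.0 and 37.3 in Mef2c-cKO. Reads that match both copies are lost or split in uniquely mapped counts, so that the division between these genes is uncertain. In SD the summed markers of excitatory neurons were at 1809 to 1944 rescaled CPM in Mef2c f/f and 1541 to 1743 in Mef2c-cKO, those of inhibitory neurons at 494 to 574 and 671 to 790.5, those of astrocytes at 594.5 to 646 and 780 to 963, and those of microglia at 144 to 151 and 181 to 196.5, without overlap, and their part in these differences was not tested. With Mef2c f/f SD 1 left out 1 member passed, with Mef2c f/f SD 3 left out 2, and with Mef2c-cKO SD 7 left out 4.

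**Figure D3:**
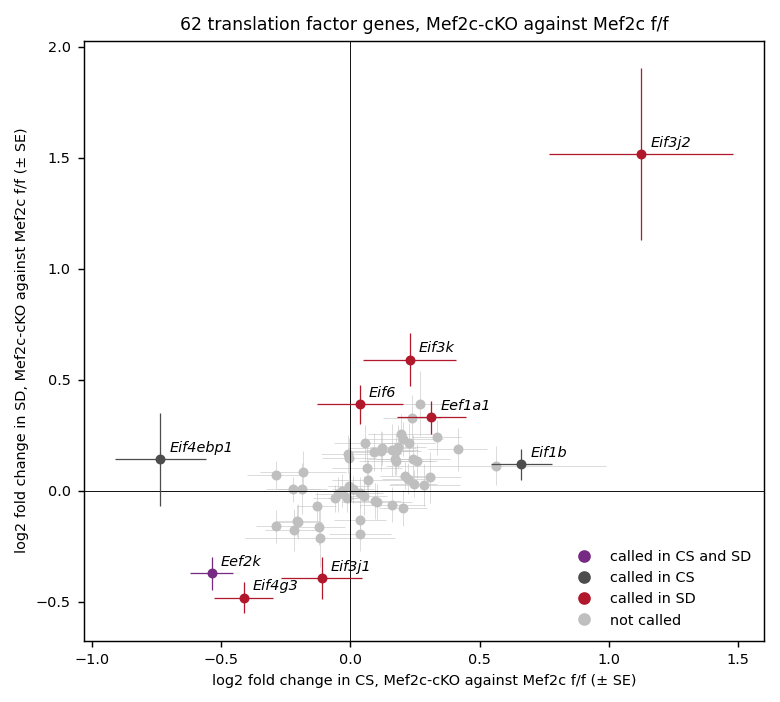
Log2 fold change (± SE) of 62 translation factor genes in Mef2c-cKO against Mef2c f/f mice, in CS on the horizontal axis (3 and 4 libraries) and in SD on the vertical axis (3 and 3 libraries), which share no library. Eef2k is the 1 DEG of both, at -0.54 and -0.37, Eif3j2 lies farthest out at 1.13 and 1.52 with the widest bars, and Eif4ebp1 and Eif1b lie near 0 on the SD axis.

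**Figure D4:**
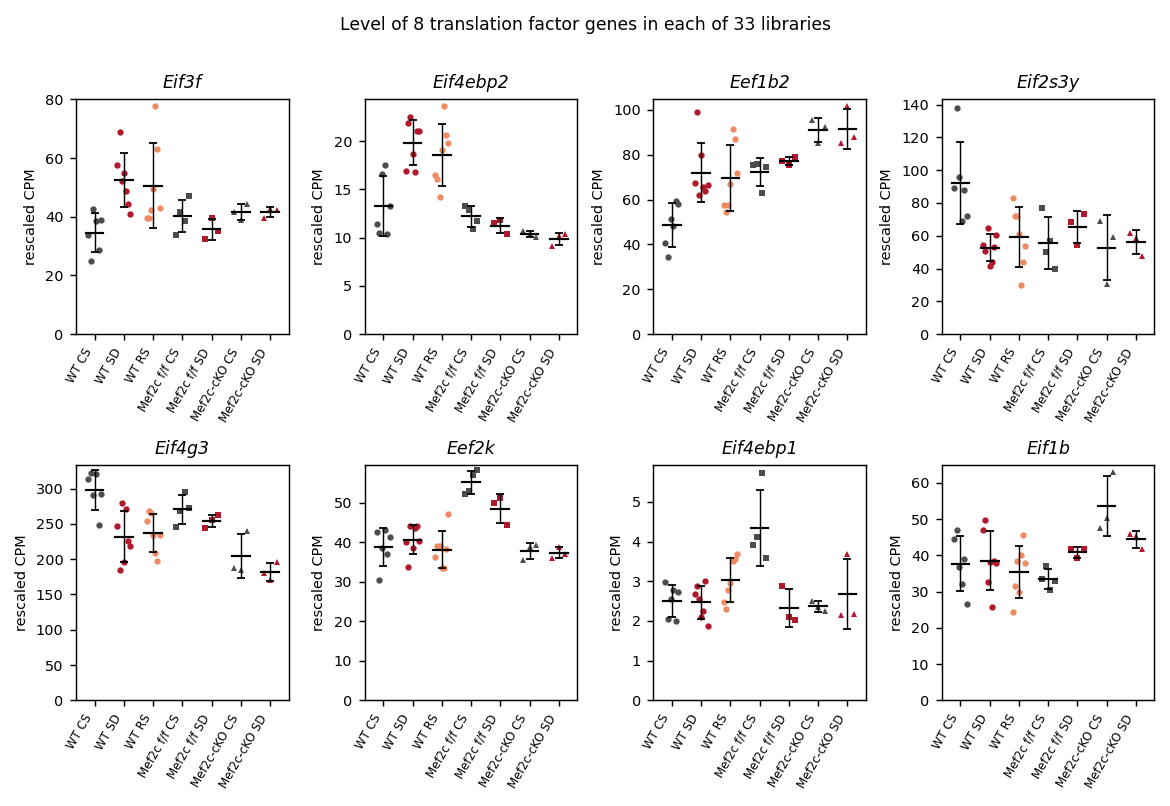
Rescaled CPM of 8 translation factor genes in each of 33 libraries (points), with the mean and SD of each of the 7 groups; grey is CS, red is SD and orange is RS, circles are WT, squares Mef2c f/f and triangles Mef2c-cKO. Eif3f, Eif4ebp2 and Eef1b2 are lowest in WT CS among WT groups and Eif2s3y is highest there, while the Mef2c f/f CS libraries of Eef2k (52.2 to 58.2) lie above every other group.

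The effect of sleep loss in Mef2c f/f was set against that in WT as an interaction. Of 61 members, 9 passed on adjusted p, against 15.1% of 13106 genes. The effect was more positive in Mef2c f/f for Eif2s3y (1.04 ± 0.27, adjusted p = 0.0262), Eif3e (0.58), Eif2a (0.56) and Eif5a2 (0.53). It was more negative for Eif3k (-0.83), Eif3f (-0.76), Eif4ebp1 (-0.745), Eif4ebp2 (-0.695) and Eif1ad (-0.66). Eif4ebp2 was at 10.9 to 13.3 rescaled CPM in Mef2c f/f CS and 10.35 to 11.9 in SD, and at 10.4 to 17.5 and 16.8 to 22.5 in WT CS and SD. The rank correlation of these differences with GC content was -0.78 over 61 members and -0.77 over 12632 genes, and after correction for GC content and length only Eif4ebp1 passed (-0.82, adjusted p = 0.048). The WT libraries differ from all others in their unlisted reads, so that genotype and set of libraries cannot be told apart.

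Other genes of the pathways were read from lists. Of 20 mTORC1 genes tested, 5 rose and 2 fell in WT SD, where 24.6% of all genes rose and 20.5% fell. With the GC and length correction 2 rose and none fell, and without the 3 CS libraries of lowest GC trend, or among libraries with under 3% unlisted reads, 1 rose and 1 fell. Ddit4, an inhibitor of mTORC1, had 2.45 to 6.38 rescaled CPM in CS and 8.87 to 23.2 in SD, with no overlap (1.65 ± 0.25, adjusted p = 0.000661), and passed in each of those fits (1.18, 1.26 and 1.30). Akt1s1 (PRAS40), another inhibitor, rose by 1.10 ± 0.28, and Mknk2, a kinase of eIF4E, by 0.86, while the S6 kinase gene Rps6kb1 fell by 0.63 (adjusted p = 0.00367) and Mtor itself was at 0.02 ± 0.08. Rps6kb1 did not pass with the correction (-0.17). In RS, 1 rose (Ddit4, 1.19) and 1 fell (Rps6kb1, -0.53), and without those 3 CS libraries neither passed (0.80 and -0.27). In Mef2c f/f, Ddit4 was at 11.97 to 15.2 in CS and 13.6 to 19.35 in SD, above the WT CS range in both.

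Of 16 genes of the stress response downstream of eIF2α tested in WT SD, 8 rose and none fell, beside 24.6% and 20.5% of all genes. With the GC and length correction 5 of 15 rose (9.34% of all genes), and without the 3 CS libraries of lowest GC trend 5 of 16 (6.70%). Among libraries with under 3% unlisted reads 3 of 16 rose (6.23%), and Atf5 (0.78) and Atf4 (0.42) were not among them. The transcription factor genes Atf5 and Atf4 rose by 1.19 ± 0.25 and 0.92 ± 0.24, the serine synthesis gene Phgdh by 0.67 ± 0.15, and the phosphatase subunit gene Ppp1r15a (GADD34) by 0.35 ± 0.13. Corrected for GC content and length, Atf5 and Atf4 passed at 0.55 and 0.65, while Phgdh (0.24) and Ppp1r15a (-0.04) did not pass. Ddit3 (CHOP) was at 0.26 ± 0.15 and Asns, the asparagine synthetase gene, at -0.10 ± 0.09, and neither passed. In RS 4 of 15 rose and none fell, and none passed with the correction or without those 3 CS libraries, while 4 of 15 did under 3% unlisted reads (7.74% of all genes rose there). Of 22 genes of cytosolic aminoacyl-tRNA synthetases and their partners, 5 rose in SD (Vars, Farsa, Wars, Mars and Yars, 0.66 to 0.305) and 1 in RS (Wars, 0.45), and none with the correction or without those 3 CS libraries. In SD the lists of 18 termination, recycling and other factors and of 10 mitochondrial factors gave 2 and 2 rises, among them Gcn1l1 (0.74), whose protein activates the kinase GCN2, and Tufm (0.735), the mitochondrial counterpart of eEF1A. The same lists gave 3 falls, with Abce1 (-0.49), Ddx3x (-0.36) and Paip1 (-0.30), and 1, Guf1 (-0.37).

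Between the genotypes, 7.67% of all genes were DEGs in CS and 15.1% in SD, and each comparison called 4 genes of the 5 lists. In CS, Tsc1, an mTORC1 inhibitor, was lower in Mef2c-cKO (-0.43 ± 0.09, adjusted p = 0.0236), as were the synthetase genes Sars (-0.48) and Cars (-0.40), and the poly(A)-binding protein gene Pabpc1 was higher (0.42). In SD, Ddit4l, a relative of Ddit4, had 22.2 to 23.9 rescaled CPM in Mef2c f/f and 8.60 to 11.3 in Mef2c-cKO (-1.24 ± 0.11, adjusted p = 0.000495), with no overlap. Rps6kb1 was lower as well (-0.37 ± 0.06, adjusted p = 0.00808), and Ddit3 (0.34) and Kars (0.305) were higher. In both genotypes taken alone, no gene of the 5 lists was a DEG between CS and SD by limma.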

How the data were processed

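RNA from FC was sequenced with a stranded mRNA kit in 33 libraries. According to the methods, the authors trimmed reads with Trimmomatic, aligned them to the mouse genome (mm10) with STAR, counted uniquely mapped reads per gene with HTSeq and made CPM with edgeR. The deposited values were CPM without counts. In each library the values were whole multiples of what 1 read is worth (100.0% of 711645 values within 0.01 of a whole number), so that read counts could be recovered from the deposited CPM.

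CPM were rescaled by median-of-ratios size factors over 11570 genes, and log2(rescaled CPM + 0.5) was tested with limma 3.58.1 (R 4.3.3; trended variance, Benjamini-Hochberg adjustment over all genes tested). Fold changes are on this scale, which understates the change of low genes. Only the groups compared entered a fit, with genes at a CPM of at least 1 in every library of at least 1 group. DEGs needed an adjusted p no higher than 0.05 and a log2 fold change no smaller in size than 0.3, and interactions the adjusted p alone. edgeR 4.0.16 and DESeq2 1.42.0 on the recovered reads, other pseudocounts (0.1 and 1), scalings and filters, a spline correction for GC content and transcript length, the replicate number as a block and leaving out each library were alternatives. Alternatives by unlisted reads or GC trend were chosen after seeing the data. Those for the pathway lists, the GC and length correction included, were too. Intervals use the moderated degrees of freedom. The scripts were tested on simulated data.

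The members and gene lists were chosen with earlier results of these data known. Any member could be named. The naming rule covered the 8 DEGs with the largest rise and fall in WT SD, the 5 largest elsewhere and a list of regulators. It also covered paralogue pairs and DEGs of the pathway lists, of which some are not named here. Gene positions and GC content came from GENCODE M21 and promoters from RefSeq, both on GRCm38, the build of mm10; the annotation that the authors counted on is not given in the sources used here. The labels do not say more of how replicates were raised, so that p-values measure the spread between these samples. No 2 libraries agreed within sampling noise. Floors cover counting error only.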

Additional observations from a re-analysis of the deposited data

Results flagged for a closer look

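In 10 of 172 sets of values (43 members in the 4 groups of 4 to 7 libraries), 1 library stood far from the rest of its group, and chance flags about 1 in 20. The gap to the nearest library, as a share of the group's range, was 0.927 for Eif6 in Mef2c f/f CS 4 (26.83 rescaled CPM against 17.6 to 18.27), 0.907 for Eef1b2 in Mef2c f/f CS 3 (63.08 against 74.7 to 75.89), 0.84 for Eef1akmt1 in Mef2c f/f CS 2 and 0.835 for Eif2a in Mef2c f/f CS 1. In WT it was 0.704 for Eef1d in SD 3, 0.678 for Eif2b4 and 0.652 for Eif2s1 in CS 2, 0.653 for Eif4a1 in SD 2, 0.585 for Eif3k in RS 5 and 0.583 for Eef2k in RS 12.

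The effect of sleep loss differed between Mef2c f/f and WT for 9 members by the interaction test in limma. That was 14.8% of members, beside 15.1% of all 13106 genes tested. With the GC and length correction only Eif4ebp1 passed, and none of the 9 passed without Mef2c f/f CS 2, CS 4, SD 1 or SD 3. The difference in log2 fold change (Mef2c f/f minus WT) was 1.036 for Eif2s3y, 0.582 for Eif3e, 0.556 for Eif2a and 0.528 for Eif5a2, and -0.83 for Eif3k, -0.762 for Eif3f, -0.745 for Eif4ebp1, -0.695 for Eif4ebp2 and -0.662 for Eif1ad. Genotype and set of libraries cannot be told apart here.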

How the results depend on the processing

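The number of members called depended on the processing, and where no cause is given the cause was not tested. Counts without a share of all genes beside them are of members alone and do not set the members apart from other genes. For WT CS against SD (23 as reported), CPM as deposited gave 36, the GC and length correction 9, and edgeR and DESeq2 25 and 28. Leaving out 1 library gave 19 to 30. Of the alternatives chosen after seeing the data, libraries under 3% unlisted reads gave 3, those at or above 3% gave 0, the class of unlisted reads as a term gave 8, and 3 CS libraries fewer gave 7. Of all genes, 9.34% were called higher and 11.3% lower with the GC and length correction. The shares were 6.23% and 7.71% under 3% unlisted reads, and 6.7% and 11.1% with 3 CS libraries fewer. Eif6 and Eif5a were lost without WT CS 1, Eif3e without CS 2, Eif3l without CS 2 or SD 2, Eif5a2 without CS 2, CS 3 or SD 8, and Eef1akmt1 without CS 1, 2, 3 or 4 or SD 2, 4 or 6. For CS against RS (9), CPM as deposited gave 15, no filter 0, the GC and length correction 1, DESeq2 16 and a fit over all WT groups 17. Libraries under 3% unlisted reads gave 9, those at or above 3% gave 0, the class as a term 5 and 3 CS libraries fewer 0. Of all genes, 1.56% were called higher and 3.7% lower in RS with the GC and length correction. The shares were 7.74% and 10.7% under 3% unlisted reads, and 0% and 0% with 3 CS libraries fewer. Leaving out 1 library gave 0 to 15, with 15 without CS 6 or RS 1. In Mef2c f/f, CS against SD (0) gave 1 by DESeq2. For Mef2c-cKO against Mef2c f/f in CS (3), CPM as deposited, quantile normalization, the GC and length correction and the fit over all groups gave 6 each, edgeR 5 and DESeq2 8, and leaving out 1 library gave 0 to 4. In SD (7), the fit over all groups gave 3 and leaving out 1 library 1 to 7. For the interaction of Mef2c f/f with WT (9), CPM as deposited gave 22, no filter 3, the GC and length correction 1, the fit over all groups 17, the class of unlisted reads as a term 1 and 3 CS libraries fewer 0. Leaving out 1 library gave 0 to 15: 0 without Mef2c f/f CS 2, CS 4, SD 1 or SD 3, 2 without Mef2c f/f SD 2 or WT SD 8, 3 without Mef2c f/f CS 3 or WT SD 9, 4 without WT CS 1 or CS 3, 5 without WT SD 2 or SD 4, and 15 without WT CS 5. The members' median in WT SD (0.07) was 0.341 with CPM as deposited and 0.178 at or above 3% unlisted reads, and 0.039 to 0.108 with 1 library left out. In RS (0.068) it was 0.253 with CPM as deposited, 0.193 under 3%, -0.036 at or above 3% and 0.15 with 3 CS libraries fewer, and 0.019 to 0.083 with 1 library left out. The sign turned in WT SD for Eif4a2 (0.331 with quantile normalization, 0.368 with the GC and length correction), for Eif2b4 (-0.003), Eif4g2 (0.336) and Eif5a2 (0.124) with that correction, and for Eif2ak2 under 3% unlisted reads (0.003), and in the interaction with WT for Eif5a2 with the correction (-0.082).

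With the replicate block, 1 member (Eif2s3y, lower) was called in WT SD, 15 in RS and 0 in the interaction of Mef2c f/f with WT. These counts are given without the share of all genes called, and so do not set the members apart from other genes. The labels do not say whether the numbers pair the samples, and the values do not settle it. In WT, same-numbered deviations correlated between -0.301 and 0.648 for CS and SD (5 numbers, of which 1 correlated best with its own). The range was 0.049 to 0.660 for CS and RS (6 and 2) and -0.726 to 0.355 for SD and RS (5 and 1). In Mef2c f/f it was 0.054 to 0.294 (3 and 2). In Mef2c-cKO there were only 2 numbers (0.066 and 0.156), of which 2 correlated best with their own. For the comparisons of Mef2c-cKO with Mef2c f/f at 1 sleep state, the groups share no replicate number and no block was fitted.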

Other observations

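The log2 ratio of Eif4ebp2 to Eif4ebp1 reads was 1.94 to 2.71 in WT CS and 2.66 to 3.49 in WT SD, and 0.92 to 1.77 in Mef2c f/f CS, 1.995 to 2.505 in Mef2c f/f SD, 2.10 to 2.17 in Mef2c-cKO CS and 1.46 to 2.24 in Mef2c-cKO SD. The Mef2c f/f CS libraries lay below every WT CS, Mef2c f/f SD and Mef2c-cKO CS library, and overlapped Mef2c-cKO SD. The log2 ratio of Eif4g3 to Eif4g1 reads was 0.055 to 0.286 in Mef2c f/f CS and -0.354 to -0.008 in Mef2c-cKO CS, and -0.057 to 0.085 and -0.611 to -0.328 in SD. At each sleep state the genotypes did not overlap. These ratios are of reads and are not corrected for transcript length.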
